A study of Saccharomyces cerevisiae with 24 samples.

Results

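The comparison described here is that of Y55 with the S288C strain of the study, BY4742, after 4 h in 20 mM caffeine. Its members are the 3 libraries labelled Y55 and the 3 labelled BY4742 in caffeine, 6 of the 24 RNA sequencing libraries of the series, and it was taken across all 6400 transcripts with enough counts to be tested, of 6713 in the files. All cultures grew in synthetic defined medium and were collected at an OD of 0.4. Y55 is a strain of Saccharomyces cerevisiae from another lineage than the laboratory strain, and BY4742 is an alpha strain of the S288C background that lacks LEU2, LYS2, URA3 and part of HIS3. Each strain stands for 1 isolate. The labels do not say whether the 3 libraries of a group came from separate cultures, so p-values measure the spread between these libraries, which may be technical. Levels are in CPM, counts scaled to the same library size, and are given for libraries 31, 39 and 47 of Y55 and then for libraries 29, 37 and 45 of BY4742, each in that order. Log2 fold changes are Y55 over BY4742 with their standard errors (SE), and a transcript is called higher or lower at an adjusted p under 0.05 by edgeR's quasi‐likelihood test.

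Caffeine inhibits the TOR complex 1, the kinase complex that couples growth to nutrients. When this complex is active, genes for ribosomal proteins and for ribosome assembly are transcribed strongly and genes for the use of poor nitrogen sources and for autophagy are held low. Caffeine also activates the cell wall integrity pathway, a protein kinase C and MAP kinase cascade, and it inhibits the breakdown of cyclic AMP by phosphodiesterases in many organisms. Mitochondrial ribosomes are built from proteins encoded in the nucleus, and the RNA‐binding protein Puf3 binds the ends of many of their mRNAs after the stop codon. The transcription factor Hsf1 drives the genes of chaperones when proteins misfold.

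The labels were checked with the genes that BY4742 lacks. LYS2 had 182, 151 and 159 CPM in Y55 and no count in any BY4742 library, which is at least 896‐fold higher against a floor of 3 counts per library. URA3 had 0.36, 26.0 and 73.4 CPM in Y55 and at most 0.0722 CPM in BY4742, so Y55 library 31 was close to the BY4742 libraries for this gene. Genes that mark alpha cells summed to between 1763 and 2118 CPM in Y55 and between 1075 and 1446 CPM in BY4742, and those that mark a cells to at most 55.7 CPM in Y55 and 115 CPM in BY4742. The 6 libraries held between 10429068 counts (Y55 library 39) and 29524968 counts (Y55 library 47). BY4742 library 37, with 13967433 counts, stood apart from the other BY4742 libraries. It was over 2‐fold below both of them for 126 of 5446 transcripts and over 2‐fold above both for 28, whereas no more than 3 transcripts lay that far out on either side in the other BY4742 libraries. Y55 library 39 was over 2‐fold below both other Y55 libraries for 46 transcripts and above both for 29. Without caffeine, Y55 library 35 stood apart for some genes. Its trehalose and glycogen genes summed to 10516 CPM, against 2616 and 1541 CPM in Y55 libraries 27 and 43. Values without caffeine and interactions include library 35. The Y55 libraries were also close to those of another strain of the study. In caffeine, Y55 and UWOPS87-2421 differed in 4 of the 6400 transcripts (0.0625%; 124 had an unadjusted p under 0.05, and DESeq2 called 5). These 4, R0010W, R0020C, R0030W and R0040C, had between 127 and 529 CPM in Y55, at most 0.124 CPM in UWOPS87-2421 and at most 0.183 CPM in BY4742. The values below are therefore not particular to Y55 among the strains. LYS2 set the Y55 libraries apart from BY4742 but not from UWOPS87-2421, which had between 166 and 186 CPM of it in caffeine. Only the 4 transcripts above, which are genes of the 2-micron plasmid and not of a chromosome, separated Y55 from UWOPS87-2421. Whether the libraries of these 2 strains are as labelled was not tested.

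In caffeine, 3784 of the 6400 transcripts (59.1%) differed between Y55 and BY4742, with 1947 (30.4%) higher in Y55 and 1837 (28.7%) lower. At least 1 log2 unit separated the strains for 636 higher transcripts (9.94%) and 744 lower transcripts (11.6%). The Y55 and BY4742 libraries did not overlap for 3817 transcripts (59.6%). Without caffeine, the same strains differed in 2172 transcripts (33.9%), 1280 of them higher (20.0%) and 892 lower (13.9%). The strain difference itself changed with caffeine, as an interaction of strain and caffeine, for 1860 transcripts (29.1%). It was shifted towards Y55 for 970 (15.2%) and towards BY4742 for 890 (13.9%). Y55 and YPS606, another strain of the study, differed in 1800 transcripts in caffeine (28.1%), 880 higher (13.8%) and 920 lower (14.4%). Over all tested transcripts, the median log2 fold change of Y55 over BY4742 was 0.00 in caffeine and 0.04 without it. Groups with most of their members higher in Y55 included mitochondrial and cytosolic ribosomal proteins, ribosome assembly factors, RNA polymerase I, histones, ergosterol synthesis and pyrimidine synthesis. Groups with most of their members lower included chaperones, autophagy genes and genes for the use of poor nitrogen sources. Each group is described by its counts and its median, with no test of the group. Every group count below is to be read beside the 30.4% higher and 28.7% lower over all tested transcripts.

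**Figure D1:**
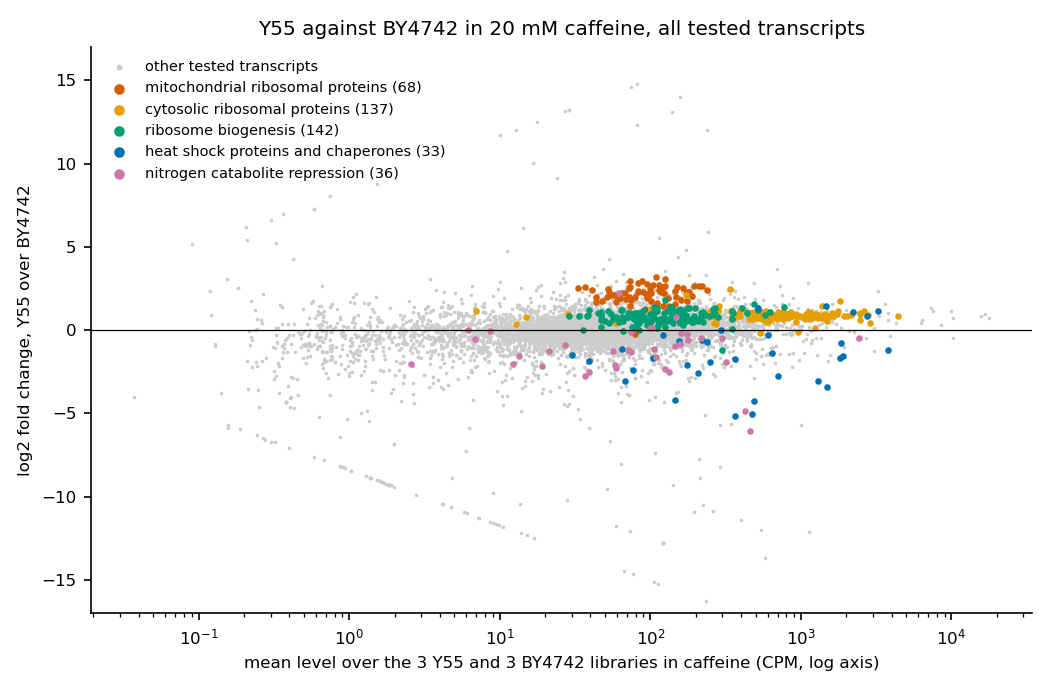
Each point is 1 tested transcript, with its mean level over the 3 Y55 and 3 BY4742 libraries in caffeine on a log axis in CPM, and the log2 fold change of Y55 over BY4742 on the vertical axis. Coloured points are members of the groups in the legend, with the number of members tested. The 68 mitochondrial ribosomal proteins lie mostly above 1, the 137 cytosolic ribosomal proteins around 0.9, and most of the 33 chaperones and 36 nitrogen catabolite repression genes below 0.

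Genes for the mitochondrial ribosome were nearly all higher in Y55. Of the 68 tested, 67 were higher in Y55, none was lower and the median log2 fold change was 2.25, against 30.4% higher and a median of 0.00 over all transcripts. Their summed level was 11869, 11306 and 11412 CPM in Y55 and 2406, 2983 and 2399 CPM in BY4742. RSM26 (YJR101W, chromosome X from 618234 to 619034 in R64), a protein of the small subunit, had 202, 189 and 193 CPM in Y55 and 17.9, 25.0 and 21.5 CPM in BY4742. The lowest Y55 library was far above the highest BY4742 library, with a log2 fold change of 3.19 (SE 0.10, adjusted p = 1.09e-14, edgeR). RSM25, another small subunit protein, had 239, 232 and 197 CPM in Y55 and 22.2, 34.5 and 22.5 CPM in BY4742, a log2 fold change of 3.08. Among proteins of the large subunit, MRPL31 had 158, 144 and 164 CPM in Y55 and 16.5, 27.3 and 17.7 CPM in BY4742 (log2 fold change 2.93). MRPL32 had 119, 135 and 132 CPM in Y55 and 12.7, 26.4 and 12.1 CPM in BY4742 (log2 fold change 2.93). BY4742 library 37 was the highest of its group for all 4 of these genes and still did not reach the Y55 libraries. At the low end of the group, MRPL36 had a log2 fold change of 1.15 and MRPL16 of 1.28. The group was taken by gene symbol, without a check of each member's role. MRP8 was the single member without a call, with 71.2, 66.8 and 79.7 CPM in Y55 and 88.5, 64.9 and 101 CPM in BY4742 (log2 fold change −0.23, adjusted p = 0.372, edgeR).

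The difference in mitochondrial ribosomal genes was also present without caffeine, with a median log2 fold change of 1.72. The interaction was towards Y55 for 48 of the 68 and towards BY4742 for none, with a median of 0.56. For RSM26 the means without caffeine were 189 ± 12.1 CPM in Y55 and 49.0 ± 3.50 CPM in BY4742 (SD, n = 3 each), and the interaction was 1.24 (SE 0.14, adjusted p = 6.53e-06, edgeR). The BY4742 libraries in caffeine thus all lay below the mean of BY4742 without caffeine, and the Y55 libraries stayed close to the mean of Y55 without caffeine. Between Y55 and YPS606 in caffeine, none of the 68 was higher and 2 were lower, MRP8 and MRPS17, and the median was 0.01.

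Several mitochondrial genes outside the ribosome also met the naming rule among the highest in Y55. MAM33 (YIL070C, chromosome IX from 230272 to 231072), a protein of the mitochondrial matrix, had 304, 310 and 369 CPM in Y55 and 24.5, 45.0 and 30.9 CPM in BY4742, a log2 fold change of 3.30 (SE 0.18). PET117, needed to assemble cytochrome c oxidase, had 82.0, 74.0 and 74.1 CPM in Y55 and 7.66, 10.1 and 7.07 CPM in BY4742 (log2 fold change 3.22, SE 0.16). COX17 carries copper to the same enzyme and had 107, 93.5 and 115 CPM in Y55 and 13.6, 17.1 and 10.3 CPM in BY4742, a log2 fold change of 2.96. MEF1, a mitochondrial translation elongation factor, had 703, 546 and 585 CPM in Y55 and 77.0, 87.7 and 78.6 CPM in BY4742 (log2 fold change 2.91). No Y55 library overlapped a BY4742 library for any of them. COX23, another protein of cytochrome c oxidase assembly, and CBP6, which acts in the translation of cytochrome b, had log2 fold changes of 2.89 and 2.88. YNL184C, an uncharacterised open reading frame, had 13.6, 21.2 and 18.7 CPM in Y55 and 1.84, 2.87 and 2.42 CPM in BY4742.

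The RNA element that Puf3 binds was searched in the reference sequence because it is shared by many mRNAs for mitochondrial proteins. The letters TGTANATA were looked for on the sense strand in the 250 bases after each stop codon. Of the 68 mitochondrial ribosomal genes, 66 (97.1%) held a match, against 906 of 5853 genes in all (15.5%). The exceptions were RSM22 and MRP8, and RSM22 was higher in Y55 (log2 fold change 1.45). The matches of 7 genes at the top of the comparison are shown on the strand of the gene, with 8 bases on each side and the fixed letters of the element in capitals.
RSM26 (X:619114-619137): ttatatacTGTAaATAgttttatt
RSM25 (IX:187936-187959): aaccaaccTGTAtATAattaaaaa
MRPL31 (XI:185228-185251): atttcatcTGTAtATAgtttaatc
MRPL32 (III:119209-119232): cttaagccTGTAtATAgaaactta
MAM33 (IX:230193-230216): aatttaacTGTAaATAatttatat
PET117 (V:272131-272154): ctcttgttTGTAtATAtgtaagaa
CBP6 (II:480397-480420): tctaagctTGTAaATAcatattta
COX17 held a pair of matches, 32 and 77 bases after its stop codon.
COX17 (XII:131158-131181): ccatttctTGTAtATAtaagaata
COX17 (XII:131113-131136): atactaccTGTAaATAtgtgcgat
Each of these has A or T at the open position of the element.

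Across all genes, those with a match were more often higher in Y55 than those without. Of 906 genes with a match, 491 (54.2%) were higher in Y55 and 142 (15.7%) lower, with a median log2 fold change of 0.39. Of 4947 genes without a match, 1346 (27.2%) were higher and 1557 (31.5%) lower, with a median of −0.05. With at least 2 matches, 58 of 84 genes (69%) were higher and the median was 0.81, and with 1 match 433 of 822 (52.7%) were higher and the median was 0.36. Leaving out the mitochondrial ribosomal genes, 425 of 840 genes with a match (50.6%) were higher and 142 (16.9%) lower. The genes with at least 2 matches were not counted apart from that group. Without caffeine, 406 of the 906 (44.8%) were higher in Y55 and 63 (6.95%) lower. PUF3 itself, named here after its values were seen, had 92.3, 82.0 and 73.8 CPM in Y55 and 50.2, 44.2 and 45.7 CPM in BY4742, a log2 fold change of 0.82 (SE 0.11, adjusted p = 1.59e-06, edgeR). A match is a description of the reference sequence, and whether Puf3 has a part in these values was not tested.

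**Figure D2:**
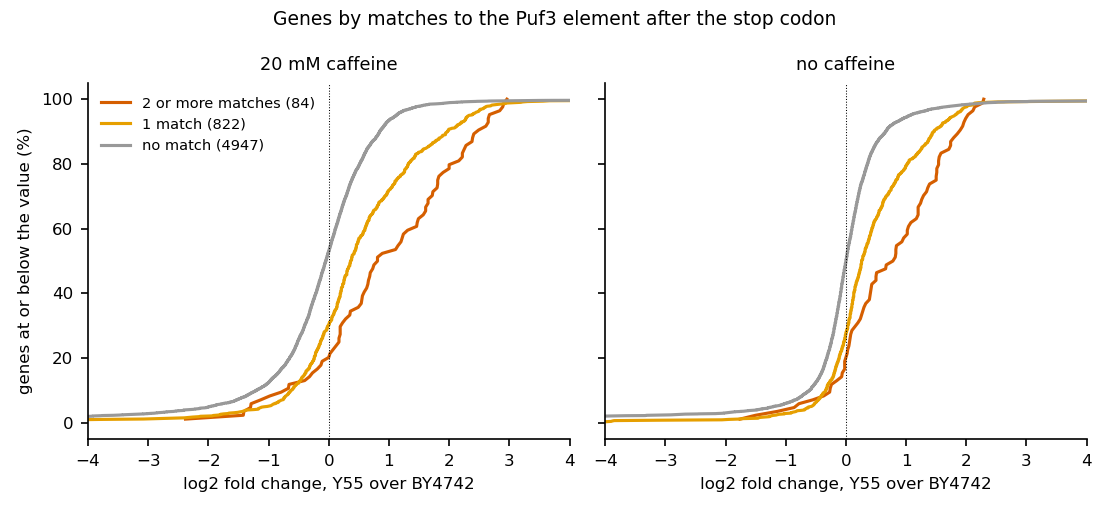
Cumulative share of genes, in percent, at or below each log2 fold change of Y55 over BY4742, in caffeine and without it, for genes grouped by the number of matches to TGTANATA in the 250 bases after the stop codon. In caffeine the curve of the 84 genes with at least 2 matches lies furthest to the right (median 0.81), followed by the 822 genes with 1 match (median 0.36) and the 4947 with none (median −0.05).

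Several of the genes named for a high fold in Y55 are related to heme, copper and oxygen. CYC1 (YJR048W, chromosome X from 526335 to 526664), which encodes the main form of cytochrome c, had 245, 391 and 234 CPM in Y55 and 13.4, 15.8 and 12.7 CPM in BY4742, a log2 fold change of 4.38 (SE 0.19, adjusted p = 2.55e-13, edgeR). CYC7, the form of cytochrome c made mainly at low oxygen, had 31.9, 52.8 and 57.9 CPM in Y55 and 7.30, 1.53 and 6.84 CPM in BY4742 (log2 fold change 3.13, SE 0.66). Both forms were thus higher in every Y55 library. CTR3 (YLR411W), a copper transporter of the plasma membrane, had 118, 56.8 and 127 CPM in Y55 and 4.62, 6.59 and 4.55 CPM in BY4742, a log2 fold change of 4.28 (SE 0.62). The S288C allele of CTR3 is known to be silenced by a transposon inserted in its promoter. YHB1 (YGR234W), the flavohemoglobin that removes nitric oxide, had 1281, 1134 and 1452 CPM in Y55 and 93.6, 90.9 and 112 CPM in BY4742 (log2 fold change 3.70, SE 0.17). YHB1 also differed from YPS606 in caffeine, by 5.62 log2 units towards Y55. None of CYC1, CYC7, CTR3 and YHB1 held a match to the Puf3 element.

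HAP1, the activator that responds to heme, was lower in Y55, with 220, 183 and 222 CPM in Y55 and 509, 502 and 498 CPM in BY4742 (log2 fold change −1.27, SE 0.15, adjusted p = 3.58e-07, edgeR). S288C strains are known to carry a transposon in the end of the HAP1 coding sequence, which weakens the protein, so a transcript level does not give its activity. Of the 26 genes of heme, oxygen and HAP1 tested, 13 were higher in Y55 and 8 lower. OLE1, the fatty acid desaturase, had 1106, 448 and 1018 CPM in Y55 and 114, 111 and 130 CPM in BY4742, a log2 fold change of 2.86 (SE 0.37). COX5B, the subunit of cytochrome c oxidase made at low oxygen, had 22.0, 26.3 and 28.6 CPM in Y55 and 135, 117 and 113 CPM in BY4742 (log2 fold change −2.25, SE 0.28). TIR1, a cell wall mannoprotein of cold and low oxygen, had 10.4, 6.06 and 12.6 CPM in Y55 and 219, 117 and 220 CPM in BY4742, a log2 fold change of −4.22. AAC1, a mitochondrial ADP/ATP carrier, was lower as well (log2 fold change −1.22). The groups did not overlap for OLE1, COX5B or TIR1.

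Ergosterol synthesis, which needs heme and oxygen, was higher in Y55 for 22 of 27 genes and lower for 2, with a median log2 fold change of 1.07 in caffeine and 1.02 without it. The interaction median was −0.06. The summed level was 16406, 14212 and 15910 CPM in Y55 and 7781, 7669 and 8018 CPM in BY4742. CYB5, cytochrome b5, had 336, 304 and 395 CPM in Y55 and 49.6, 46.4 and 50.0 CPM in BY4742 (log2 fold change 2.82, SE 0.12). ERG28, a scaffold of the sterol enzymes, had 237, 230 and 304 CPM in Y55 and 39.4, 37.1 and 50.5 CPM in BY4742 (log2 fold change 2.60). HMG1, which makes mevalonate at the controlled step of the pathway, had 668, 508 and 634 CPM in Y55 and 161, 147 and 178 CPM in BY4742 (log2 fold change 1.90). These 3 genes did not overlap between the strains. UPC2, a sterol‐responsive activator of the pathway, went the other way, with 39.8, 44.4 and 37.2 CPM in Y55 and 126, 71.3 and 121 CPM in BY4742 (log2 fold change −1.39). Between Y55 and YPS606 in caffeine, CYB5, ERG28 and HMG1 were higher in Y55 by 0.59, 0.62 and 0.55 log2 units.

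In the respiratory chain and ATP synthase no such direction was seen. Of 41 genes, 14 were higher in Y55 and 12 lower, with a median of 0.08. Beside CYC1 and CYC7, NDE1, an NADH dehydrogenase of the inner membrane, had 594, 650 and 491 CPM in Y55 and 139, 158 and 133 CPM in BY4742 (log2 fold change 2.01). CYT1, cytochrome c1, had a log2 fold change of 1.30. SDH2, a subunit of succinate dehydrogenase, had 24.4, 33.9 and 30.4 CPM in Y55 and 84.1, 68.3 and 79.5 CPM in BY4742 (log2 fold change −1.39). The tricarboxylic acid cycle had 4 of 13 genes higher and 2 lower.

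**Figure D3:**
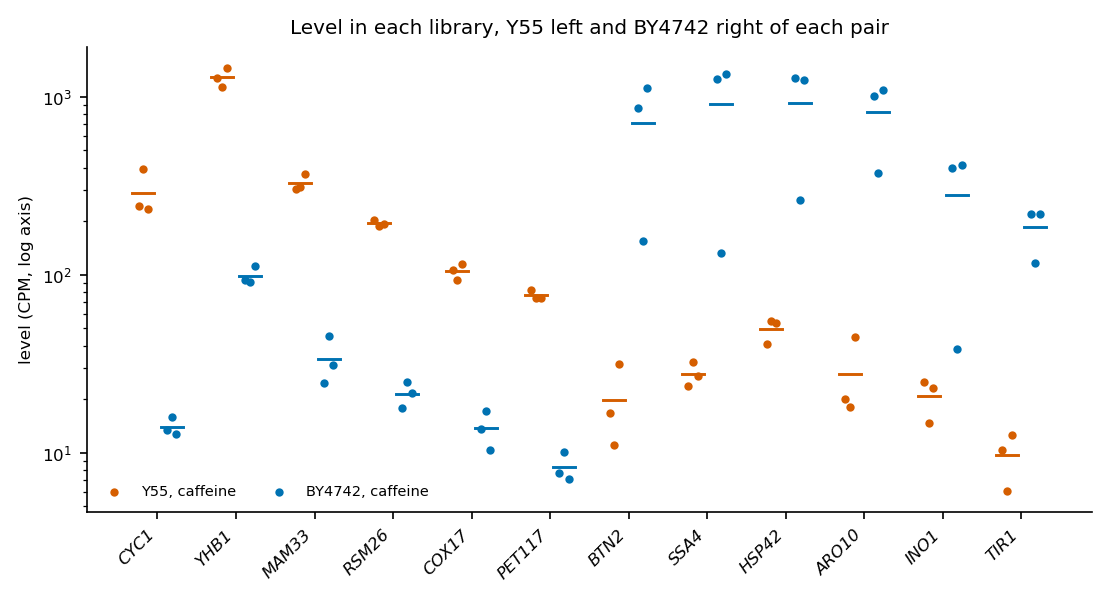
Level in CPM on a log axis of 12 named genes in each of the 3 Y55 and 3 BY4742 libraries in caffeine, 1 point per library and the mean as a line. For CYC1, YHB1, MAM33, RSM26, COX17 and PET117 every Y55 point lies above every BY4742 point, and for BTN2, SSA4, HSP42, ARO10, INO1 and TIR1 every Y55 point lies below. The lowest BY4742 point of these last 6 genes is library 37.

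Cytosolic ribosomal proteins were higher in Y55 in caffeine and close to equal without it. Of the 56 genes of the small subunit tested, 52 were higher and none lower, with a median log2 fold change of 0.89 in caffeine and −0.10 without it. Of the 81 genes of the large subunit, 74 were higher and none lower, with medians of 0.88 in caffeine and −0.10 without it. The interaction medians were 1.01 and 0.99. Small subunit genes summed to 65901, 79031 and 62152 CPM in Y55 and 30178, 49631 and 29446 CPM in BY4742 in caffeine, and to between 76566 and 91027 CPM in Y55 and between 89793 and 94384 CPM in BY4742 without it. All 6 libraries in caffeine were thus below the 3 BY4742 libraries without caffeine, and the BY4742 libraries were lowest. Libraries 39 and 37 were the highest of their strains. Without library 37, 55 of the 56 and 79 of the 81 were higher in Y55. RPS2, a small subunit protein encoded by a single gene, had 3657, 4198 and 3058 CPM in Y55 and 1340, 2186 and 1299 CPM in BY4742 (log2 fold change 1.18, SE 0.19, adjusted p = 2.81e-05, edgeR), and its interaction was 1.15 (SE 0.27). RPL22B of the large subunit had 132, 123 and 168 CPM in Y55 and 49.0, 66.9 and 62.6 CPM in BY4742 (log2 fold change 1.25). Most ribosomal proteins come from a pair of near‐identical genes between which reads cannot be divided with certainty, so values of single copies are uncertain.

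**Figure D4:**
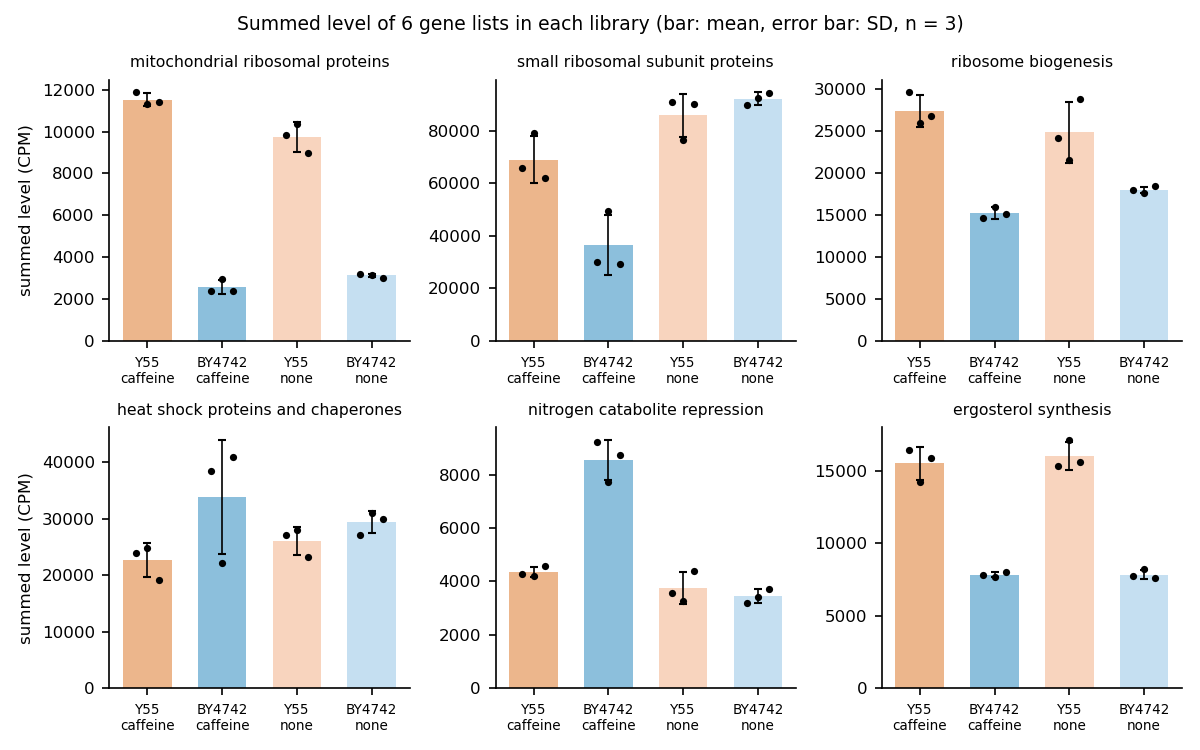
Summed level, in CPM, of 6 gene groups in each library, with Y55 left of BY4742, in caffeine and without it. Points are libraries, bars are means and error bars are SD (n = 3). The mitochondrial ribosomal sums lie between 11306 and 11869 CPM in Y55 and between 2399 and 2983 CPM in BY4742 in caffeine, and the chaperone sum of BY4742 library 37 (22174 CPM) lies within the Y55 range.

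Ribosome assembly was higher in Y55 in both conditions. Of 142 assembly factors tested, 130 were higher and 1 was lower in caffeine, with a median of 0.82 in caffeine and 0.45 without it. CIC1, a large subunit assembly factor, had 185, 165 and 232 CPM in Y55 and 48.3, 53.7 and 62.1 CPM in BY4742 (log2 fold change 1.83, SE 0.16). ENP1, a small subunit assembly factor, had 214, 191 and 197 CPM in Y55 and 76.0, 78.8 and 70.5 CPM in BY4742 (log2 fold change 1.42). DBP2, an RNA helicase, had a log2 fold change of 1.59 and ALB1 of 1.4. The lone lower gene, ESF1, of small subunit assembly, had 182, 186 and 171 CPM in Y55 and 389, 451 and 405 CPM in BY4742 (log2 fold change −1.21, SE 0.10, adjusted p = 4.74e-09, edgeR). RNA polymerase I, which makes the large ribosomal RNA, had 7 of 8 subunits and factors higher and none lower. Its RPA190, the largest subunit, had 674, 445 and 562 CPM in Y55 and 249, 250 and 277 CPM in BY4742 (log2 fold change 1.12), and its RPA43 had a log2 fold change of 1.20.

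The PAC element GATGAG, known from the promoters of ribosome assembly genes, was searched on both strands in the 500 bases before each start codon. It was present before 128 of the 142 genes (90.1%), against 1641 of 5853 in all (28.0%). Sites of CIC1, ENP1 and the exception ESF1 are shown on the strand of the element, with the element in capitals and 8 bases on each side.
CIC1 (VIII:210717-210738): aaatttgcGATGAGctccagtg
ENP1 (II:714562-714583): taaaaatcGATGAGctcccact
ESF1 (IV:1206489-1206510): gaatttgaGATGAGatgagatg
Over all genes, 178 of 335 (53.1%) with at least 2 matches were higher in Y55, with a median log2 fold change of 0.44. Among 1306 genes with 1 match, 33.4% were higher and the median was 0.05. Among 4212 genes with none, 29.0% were higher and the median was −0.03. Outside the ribosome assembly group, 497 of 1513 genes with any match (32.8%) were higher, with a median of 0.06. The genes with at least 2 matches include members of the group, such as ESF1, and were not counted apart from it. Matches that overlap, as in ESF1, were counted separately.

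Chaperones were lower in Y55. Of the 33 heat shock proteins and chaperones tested, 25 were lower and 5 higher, with a median log2 fold change of −1.56 in caffeine and −0.27 without it, and an interaction median of −1.11. BTN2 (YGR142W, chromosome VII from 772454 to 773686), which helps to collect misfolded proteins, had 16.6, 11.1 and 31.3 CPM in Y55 and 870, 154 and 1118 CPM in BY4742, a log2 fold change of −5.16 (SE 0.67, adjusted p = 2.11e-06, edgeR). SSA4 (YER103W), the Hsp70 that is made on stress, had 23.7, 32.2 and 27.1 CPM in Y55 and 1257, 133 and 1353 CPM in BY4742 (log2 fold change −5.05, SE 0.54). HSP42, a small heat shock protein that sequesters misfolded proteins, had 41.0, 54.6 and 53.5 CPM in Y55 and 1281, 263 and 1242 CPM in BY4742 (log2 fold change −4.23, SE 0.83). BY4742 library 37 was far below the other BY4742 libraries for these 3 genes, and it was above every Y55 library for each. For HSP26, another small heat shock protein, library 37 was within the range of Y55, with 15, 7.51 and 21.7 CPM in Y55 and 382, 19.9 and 430 CPM in BY4742 (log2 fold change −4.20, SE 0.87). Without library 37, 26 of the 33 were lower and 5 higher. The summed level was 23911, 24857 and 19225 CPM in Y55 and 38399, 22174 and 40827 CPM in BY4742, so the groups overlapped through library 37.

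The 5 chaperones that were higher in Y55 included those of the mitochondrial matrix. HSP60, the mitochondrial chaperonin, had 2427, 2073 and 1939 CPM in Y55 and 779, 781 and 812 CPM in BY4742 (log2 fold change 1.44, SE 0.16). HSP10, its partner, had 698, 749 and 788 CPM in Y55 and 270, 324 and 274 CPM in BY4742 (log2 fold change 1.36), and SSC1, the Hsp70 of the matrix, had a log2 fold change of 1.08. HSF1, named here after its values were seen and with counts that kallisto had divided, had 119, 121 and 121 CPM in Y55 and 199, 178 and 198 CPM in BY4742 (log2 fold change −0.67). Its mean without caffeine was 114 ± 3.62 CPM in Y55 and 101 ± 3.57 CPM in BY4742 (SD, n = 3 each). The heat shock element, here TTC, GAA and TTC with 2 bases of any kind between each, was searched on both strands in the 500 bases before the start codon. It was found before 13 of the 33 genes (39.4%), against 89 of 5853 in all (1.52%), and before 11 of the 25 lower ones (44.0%) and 2 of the 5 higher ones (40.0%). Examples from both directions are shown on the strand of the element, with its fixed letters in capitals.
BTN2 (VII:772102-772130): acttttttTTCtaGAAagTTCcggaaaat
HSP42 (IV:806370-806398): cttaaaagTTCtgGAAggTTCgcgaattg
HSP60 (XII:665192-665220): atttggttTTCtgGAAaaTTCcacgaggt
SSA4 held no match to these letters in that window. Genes with the element outside the group were called in both directions, with 25 of 76 (32.9%) higher and 17 (22.4%) lower in Y55. Over all genes, 12 of 18 (66.7%) with at least 2 matches were lower and 3 (16.7%) higher, with a median of −1.42. These 18 include BTN2 and HSP42, whose 2 matches overlap on opposite strands. Among 71 genes with 1 match, 22.5% were lower and 33.8% higher. Among 5764 genes with none, 29.0% were lower and 31.4% higher.

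Chaperones of the endoplasmic reticulum were less one‐sided, with 8 of 20 lower and 3 higher, and 3 lower without Y55 library 39. KAR2, the Hsp70 of that compartment, had 497, 449 and 408 CPM in Y55 and 1450, 620 and 1591 CPM in BY4742 (log2 fold change −1.44). The proteasome had 13 of 34 genes higher and 1 lower, with a median of 0.26, and without library 37 only 5 were higher. The lower gene was RPN4, the activator of proteasome genes, with 99.1, 78.5 and 127 CPM in Y55 and 501, 128 and 565 CPM in BY4742 (log2 fold change −1.97). Of 27 antioxidant genes, 7 were higher and 6 lower, against 30.4% and 28.7% over all transcripts. GLR1, glutathione reductase, had 270, 250 and 265 CPM in Y55 and 109, 119 and 119 CPM in BY4742 (log2 fold change 1.18), and GTT1, a glutathione transferase, had a log2 fold change of −1.51. Trehalose and glycogen metabolism had 1 of 19 genes higher and 2 lower.

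**Figure D5:**
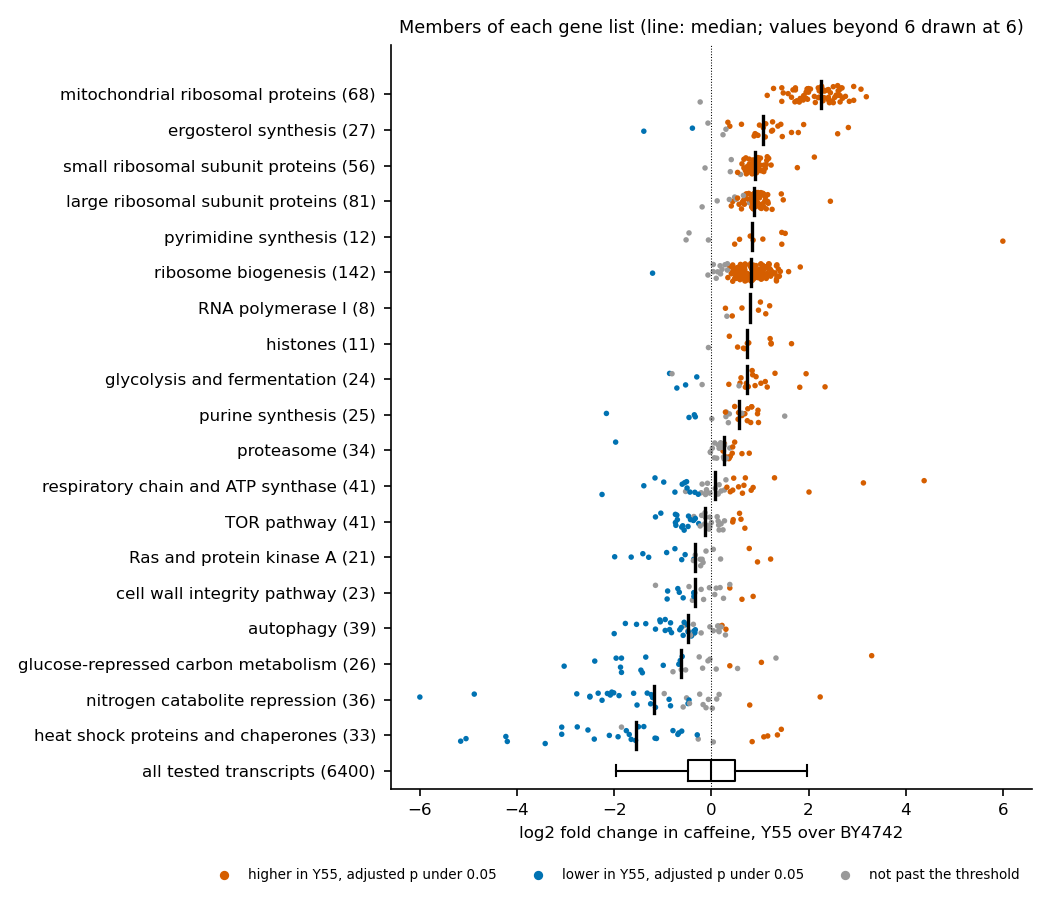
Log2 fold change in caffeine of Y55 over BY4742 for each tested member of the gene groups, 1 point per gene, with the number tested in brackets and the median as a vertical line. Values beyond 6 in either direction (URA3 and ARO9) are drawn at 6. The medians run from 2.25 for mitochondrial ribosomal proteins to −1.56 for chaperones, and the box at the bottom shows all 6400 tested transcripts (median 0.00).

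Genes for the use of poor nitrogen sources were lower in Y55. Of the 36 genes under nitrogen catabolite repression, 23 were lower and 2 higher, with a median of −1.18 in caffeine, −0.33 without it and −0.76 for the interaction. They summed to 4270, 4202 and 4571 CPM in Y55 and 9210, 7741 and 8726 CPM in BY4742. DUR3, the urea and polyamine transporter, had 9.39, 7.51 and 11.2 CPM in Y55 and 68.0, 61.8 and 63.9 CPM in BY4742 (log2 fold change −2.77, SE 0.17, adjusted p = 2.77e-11, edgeR). MEP2, an ammonium transporter, had 43.9, 15.8 and 58.4 CPM in Y55 and 254, 199 and 224 CPM in BY4742 (log2 fold change −2.50). GAP1, the general amino acid permease, which was chosen after its values were seen, had 23.6, 13.3 and 24.1 CPM in Y55 and 83.7, 137 and 73.9 CPM in BY4742 (log2 fold change −2.25). No BY4742 library, 37 included, fell within the Y55 range of these 3 genes. Without caffeine the means of DUR3 were 8.42 ± 1.43 CPM in Y55 and 13.3 ± 1.74 CPM in BY4742 (SD, n = 3 each), and the interaction was −2.12 (SE 0.23). OPT2, an oligopeptide transporter, was higher in Y55, with 94.1, 120 and 92.7 CPM in Y55 and 18.7, 23.4 and 22.5 CPM in BY4742 (log2 fold change 2.24).

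ARO10 and ARO9 belong to the breakdown of aromatic amino acids. ARO10 (YDR380W), the decarboxylase of that pathway, had 19.9, 18.1 and 44.8 CPM in Y55 and 1008, 373 and 1089 CPM in BY4742 (log2 fold change −4.88, SE 0.38, adjusted p = 1.47e-09, edgeR). Its interaction was −4.30 (SE 0.49). ARO9, the transaminase before it, had 9.07, 3.56 and 26.5 CPM in Y55 and 1171, 380 and 1177 CPM in BY4742 (log2 fold change −6.06, and −7.08 without Y55 library 47), with counts divided between similar transcripts in 1 library. ARO10 and ARO9 also differed from YPS606 in caffeine, by −2.31 and −4.24 log2 units. The GATA element GATAAG, which the nitrogen regulators bind, was searched on both strands in the 500 bases before the start codon. It was found before 24 of the 36 genes (66.7%), against 1339 of 5853 in all (22.9%), and before 17 of the 23 lower ones (73.9%). GAP1 held 4 matches, 2 of which are shown on the strand of the element.
GAP1 (XI:514712-514733): tggtaactGATAAGattgttaa
GAP1 (XI:514762-514783): ctccagaaGATAAGctaatcgg
Over all genes, 94 of 217 (43.3%) with at least 2 matches were lower in Y55 and 44 (20.3%) higher, with a median log2 fold change of −0.29. Among 1122 genes with 1 match, 32.2% were lower and the median was −0.07. Among 4514 genes with none, 27.6% were lower and the median was 0.04. Outside the nitrogen group, 438 of 1315 genes with any match (33.3%) were lower, with a median of −0.08. The genes with at least 2 matches were not counted apart from that group.

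Autophagy genes, which the TOR complex 1 also holds low, were lower in Y55 for 22 of 39 and higher for 2 (none higher without library 31, 1 without library 37 or 39, 1 in a fit with each set of 4 consecutive library numbers as a block), with a median of −0.48 in caffeine and −0.08 without it. ATG5, part of the machinery that joins Atg8 to lipid, had 34.6, 26.0 and 40.1 CPM in Y55 and 106, 61.7 and 127 CPM in BY4742 (log2 fold change −1.54, SE 0.19). ATG41 had 10.3, 9.34 and 10.1 CPM in Y55 and 37.1, 48.7 and 34.1 CPM in BY4742 (log2 fold change −2.00). PRB1, the vacuolar protease B, had 507, 304 and 510 CPM in Y55 and 2080, 486 and 1934 CPM in BY4742 (log2 fold change −1.77, SE 0.48), and here library 37 fell within the Y55 range. Among the components of the TOR pathway themselves, 17 of 41 were lower and 5 higher, with a median of −0.14. The shares over all transcripts were 28.7% lower and 30.4% higher. SCH9, the kinase that TOR complex 1 phosphorylates, had 66.8, 55.3 and 45.4 CPM in Y55 and 128, 111 and 131 CPM in BY4742 (log2 fold change −1.15, SE 0.15), and the interaction was 0.26 (SE 0.21, adjusted p = 0.361, edgeR). EGO2, of the complex that anchors TOR complex 1 at the vacuole, was higher in Y55 (log2 fold change 0.69, SE 0.17), with 10.8, 16.5 and 10.2 CPM in Y55 and 8.20, 7.99 and 6.78 CPM in BY4742.

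In the Ras and protein kinase A pathway, 9 of 21 genes were lower in Y55 and 3 higher, with a median of −0.33. Over all transcripts, 28.7% were lower and 30.4% higher. PDE1, a cyclic AMP phosphodiesterase, had 67.8, 58.0 and 85.2 CPM in Y55 and 280, 279 and 284 CPM in BY4742 (log2 fold change −1.99, SE 0.17, adjusted p = 3.47e-09, edgeR). Without caffeine its means were 50.4 ± 2.29 CPM in Y55 and 49.6 ± 3.67 CPM in BY4742 (SD, n = 3 each), so the strains were close to equal there, and the interaction was −2.02 (SE 0.23). IRA2, which turns Ras off, had 61.9, 60.3 and 71.1 CPM in Y55 and 170, 155 and 187 CPM in BY4742 (log2 fold change −1.41). MSN4, a stress activator that protein kinase A inhibits, had 40.1, 39.9 and 42.0 CPM in Y55 and 145, 90.4 and 147 CPM in BY4742 (log2 fold change −1.65). The Ras proteins themselves were higher in Y55. RAS1 had 63.5, 80 and 48.4 CPM in Y55 and 27.1, 25.2 and 29.4 CPM in BY4742 (log2 fold change 1.22), and RAS2 had a log2 fold change of 0.95.

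The cell wall integrity pathway had 8 of 23 genes lower in Y55 and 3 higher, with a median of −0.34, against 28.7% lower and 30.4% higher over all transcripts. RLM1, the transcription factor at its end, had 152, 106 and 145 CPM in Y55 and 282, 216 and 263 CPM in BY4742 (log2 fold change −0.91, SE 0.18). Its means without caffeine were 91.2 ± 13.1 CPM in Y55 and 82.3 ± 3.71 CPM in BY4742 (SD, n = 3 each), and its interaction was −1.06 (SE 0.26, adjusted p = 0.00482, edgeR). RHO1, the GTPase at the head of the pathway, had 422, 487 and 447 CPM in Y55 and 298, 285 and 292 CPM in BY4742 (log2 fold change 0.63), and KDX1, a kinase‐like target of Rlm1, had a log2 fold change of 0.86 with overlapping libraries. SLT2, the MAP kinase of the pathway, named after its values were seen, had 376, 244 and 401 CPM in Y55 and 520, 555 and 542 CPM in BY4742 (log2 fold change −0.66), with divided counts in 2 libraries, and was not called without Y55 library 39 (−0.47). All of these were detected in every library of both strains.

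Of 42 genes for cell wall proteins and enzymes, 8 were higher in Y55 and 13 lower, against 30.4% and 28.7% over all transcripts, and the count of higher genes was 13 without library 37 and 5 without Y55 library 31. GSC2, the glucan synthase subunit made on wall stress, had 262, 124 and 284 CPM in Y55 and 994, 667 and 1042 CPM in BY4742 (log2 fold change −2.01), with divided counts in 3 libraries. NCW2 had 285, 177 and 229 CPM in Y55 and 980, 451 and 903 CPM in BY4742 (log2 fold change −1.75, SE 0.26), and without caffeine the means were 115 ± 19.4 CPM in Y55 and 96.3 ± 14 CPM in BY4742 (SD, n = 3 each). The interactions of GSC2 and NCW2 were −2.04 and −2.01. CWP1, a wall mannoprotein, was higher in Y55, with 491, 540 and 431 CPM in Y55 and 115, 159 and 116 CPM in BY4742 (log2 fold change 1.91). YGP1 had 861, 511 and 835 CPM in Y55 and 269, 130 and 312 CPM in BY4742 (log2 fold change 1.63). GAS2, a glucan remodelling enzyme of the spore wall, had 3.85, 3.95 and 5.11 CPM in Y55 and 31.5, 88.9 and 36.0 CPM in BY4742 (log2 fold change −3.58), with library 37 the highest, and −2.96 without it.

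Glycolysis and fermentation had 17 of 24 genes higher in Y55 and 4 lower (2 lower without library 37 or library 39), with a median of 0.74 in caffeine and 0.02 without it. TDH2, a glyceraldehyde phosphate dehydrogenase, had 6582, 4864 and 4785 CPM in Y55 and 748, 1672 and 776 CPM in BY4742 (log2 fold change 2.34), and ENO1, an enolase, had 1731, 1124 and 1398 CPM in Y55 and 370, 347 and 380 CPM in BY4742 (log2 fold change 1.95). Both share reads with a near‐identical copy, so the division between copies is uncertain. Genes that glucose represses had 13 of 26 lower and 3 higher, with a median of −0.63. YAT1, a carnitine acetyltransferase, had 46.5, 15.7 and 54.4 CPM in Y55 and 281, 393 and 292 CPM in BY4742 (log2 fold change −3.03, SE 0.38). Without caffeine its means were 4.64 ± 1.14 CPM in Y55 and 3.73 ± 1 CPM in BY4742 (SD, n = 3 each), and all 6 libraries in caffeine were above these. ADR1, an activator of glucose‐repressed genes, had 26.5, 23.5 and 33.7 CPM in Y55 and 160, 100 and 182 CPM in BY4742 (log2 fold change −2.40). Hexose transporters and their regulators had 3 of 22 higher (1 without library 39) and 7 lower. GPD2 and GPP1, which make glycerol, had log2 fold changes of 1.44 and 1.22, and over the 26 genes of the high osmolarity pathway and glycerol, 4 were higher and 11 lower.

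Most genes of pyrimidine and purine synthesis were higher in Y55. Of 12 pyrimidine genes, 9 were higher and none lower (1 lower without library 31 or library 37), with a median of 0.83 in caffeine and −0.06 without it, and 1 of the 9 was URA3, which BY4742 lacks. URA1, dihydroorotate dehydrogenase, had 342, 216 and 257 CPM in Y55 and 101, 82.2 and 114 CPM in BY4742 (log2 fold change 1.45, SE 0.16). URA4, the enzyme before it, had 237, 178 and 206 CPM in Y55 and 68.3, 87.8 and 71.1 CPM in BY4742 (log2 fold change 1.45). Without caffeine both were lower in Y55, with log2 fold changes of −1.19 for URA1 and −0.79 for URA4, and the interactions were 2.65 (SE 0.22) and 2.24 (SE 0.17). FUR1, of uracil salvage, had 144, 130 and 110 CPM in Y55 and 40.8, 49.7 and 43.7 CPM in BY4742 (log2 fold change 1.52). BY4742 needs uracil from the medium, and whether this has a part in these values was not tested. Of 25 purine genes, 14 were higher and 4 lower (2 lower without library 39 or with a block of 8 or 4 library numbers), with a median of 0.56 in caffeine and −0.28 without it. ADE4, the entry step of the pathway, had 585, 491 and 674 CPM in Y55 and 253, 399 and 247 CPM in BY4742 (log2 fold change 0.96). ADE17 was not called, with 1072, 978 and 913 CPM in Y55 and 242, 559 and 237 CPM in BY4742 (log2 fold change 1.51, adjusted p = 0.0639, edgeR), and was called without library 37 (2.04).

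Amino acid synthesis went in mixed directions. Arginine synthesis had 7 of 12 genes lower and 1 higher (none higher without library 31 or library 37). ARG4, argininosuccinate lyase, had 75.5, 78.9 and 78.7 CPM in Y55 and 405, 309 and 403 CPM in BY4742 (log2 fold change −2.26, SE 0.13, adjusted p = 1.56e-11, edgeR). Lysine synthesis had 5 of 9 genes lower and 1 higher, the higher one being LYS2, and 3 lower without library 37 or library 39. LYS1, the last step of the pathway, had 62.3, 58.8 and 82.3 CPM in Y55 and 218, 194 and 192 CPM in BY4742 (log2 fold change −1.57). Without caffeine LYS1 was higher in Y55 (log2 fold change 0.95), and the interaction was −2.51 (SE 0.20). In the synthesis of leucine, isoleucine and valine, 4 of 12 were higher and 6 lower. LEU1, which acts before the step that BY4742 lacks, had 132, 112 and 121 CPM in Y55 and 253, 137 and 252 CPM in BY4742 (log2 fold change −0.82). HIS3, deleted in part in BY4742, was still counted there, with 63.9, 65.8 and 65.9 CPM in Y55 and 152, 190 and 120 CPM in BY4742. Sulfate assimilation and methionine synthesis had 13 of 33 higher and 11 lower, and MHT1, a methyltransferase that makes methionine, had 34.2, 25.2 and 32.5 CPM in Y55 and 5.53, 3.90 and 5.86 CPM in BY4742 (log2 fold change 2.58).

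In lipid synthesis, inositol and phospholipid genes divided into both directions, with 7 of 21 higher and 8 lower. INO1 (YJL153C), which makes inositol phosphate, had 24.8, 14.7 and 23.2 CPM in Y55 and 396, 38.4 and 413 CPM in BY4742 (log2 fold change −3.74, SE 0.59, adjusted p = 1.89e-05, edgeR). Library 37 was the nearest of the BY4742 libraries to Y55. Without caffeine INO1 had 17.9 ± 11.8 CPM in Y55 and 8.57 ± 0.255 CPM in BY4742 (SD, n = 3 each), and the interaction of −4.84 was the lowest among the genes that met the naming rule. OPI3, a phospholipid methyltransferase, had 140, 87.2 and 127 CPM in Y55 and 581, 316 and 539 CPM in BY4742 (log2 fold change −2.02). FAS1, a subunit of fatty acid synthase, had 1563, 862 and 1335 CPM in Y55 and 408, 393 and 450 CPM in BY4742 (log2 fold change 1.59). ACC1, acetyl‐CoA carboxylase, had 1467, 827 and 1103 CPM in Y55 and 383, 349 and 396 CPM in BY4742 (log2 fold change 1.59). Without caffeine neither was called (adjusted p = 0.392 for FAS1 and 0.454 for ACC1, edgeR).

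Among transporters, drug efflux and pleiotropic drug resistance had 6 of 27 genes higher (3 without library 31) and 10 lower. For this and the next groups, the shares over all transcripts were 30.4% higher and 28.7% lower. AQR1, a multidrug transporter that exports amino acids, had 174, 122 and 125 CPM in Y55 and 37.5, 35.6 and 36.8 CPM in BY4742 (log2 fold change 1.94, SE 0.21). PDR10, an ABC transporter, had 49.5, 35.3 and 57.8 CPM in Y55 and 427, 188 and 435 CPM in BY4742 (log2 fold change −2.87, SE 0.24). Without caffeine the strains had 30.8 ± 3.71 CPM (Y55) and 28.4 ± 2.64 CPM (BY4742) of PDR10 (SD, n = 3 each), and the interaction was −2.99. QDR2, a multidrug and potassium transporter, had 20.3, 14.2 and 18.4 CPM in Y55 and 57.1, 79.3 and 54.1 CPM in BY4742 (log2 fold change −1.83). Iron uptake had 10 of 27 lower and 5 higher (3 without library 31). FET3, the multicopper oxidase of iron uptake, had 404, 432 and 340 CPM in Y55 and 880, 1470 and 805 CPM in BY4742 (log2 fold change −1.42). Genes of phosphate starvation had 6 of 26 higher and 9 lower.

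In the cell cycle, 7 of 18 cyclin and cell cycle genes were higher in Y55 and 3 lower, against 30.4% and 28.7% over all transcripts. CLN3, the cyclin that starts the cycle, had 146, 140 and 135 CPM in Y55 and 76.1, 72.6 and 74.5 CPM in BY4742 (log2 fold change 0.92, SE 0.09). CLN2, a cyclin of late G1, had 193, 153 and 173 CPM in Y55 and 61.0, 124 and 65.7 CPM in BY4742 (log2 fold change 1.05). Histone genes were higher for 10 of 11, with a median of 0.74, but only 3 of them had undivided counts. Of 12 genes of daughter cell separation, which act at the end of division, 4 were lower in Y55 and 3 higher (5 higher without library 37). CTS1, the chitinase that frees the daughter cell, had 315, 221 and 302 CPM in Y55 and 618, 1127 and 688 CPM in BY4742 (log2 fold change −1.54). Without caffeine its log2 fold change was −3.31, and the interaction was 1.77 (SE 0.35). The interaction was towards Y55 for 8 of the 12 and towards BY4742 for 1. Genes of DNA damage and ribonucleotide reductase had none of 18 higher and 6 lower, and 1 higher and 3 lower without library 39.

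Several of the genes named for a low fold in Y55 belong to none of these groups. SRD1 (YCR018C), which acts in ribosomal RNA processing, had 2.66, 2.21 and 2.23 CPM in Y55 and 49.1, 61.9 and 41.6 CPM in BY4742 (log2 fold change −4.41, SE 0.21). BNA1 (YJR025C), an enzyme of NAD synthesis from tryptophan, had 1.30, 0.77 and 1.79 CPM in Y55 and 21.8, 22.1 and 19.3 CPM in BY4742 (log2 fold change −3.93, SE 0.24). Both were also lower in Y55 without caffeine, with log2 fold changes of −3.32 for SRD1 and −4.37 for BNA1. ROQ1, which redirects the ubiquitin ligase Ubr1 to misfolded proteins, had 1.65, 1.16 and 4.01 CPM in Y55 and 90.8, 22.5 and 78.9 CPM in BY4742 (log2 fold change −4.72, SE 0.73, and −5.44 without Y55 library 47). Its fold without caffeine was not called (adjusted p = 0.752, edgeR). OSW2, of spore wall formation, had 2.41, 1.16 and 3.76 CPM in Y55 and 69.7, 26.6 and 69.3 CPM in BY4742 (log2 fold change −4.41), and YPT53, a GTPase of endosomal traffic, had 3.20, 1.35 and 4.64 CPM in Y55 and 51.0, 17.4 and 52.1 CPM in BY4742 (log2 fold change −3.63). The uncharacterised YEL073C, YMR084W, YMR085W and YOR385W had log2 fold changes of −4.56, −3.98, −3.86 and −3.79. YMR084W and YMR085W are neighbours on chromosome XIII. For ROQ1, OSW2, YPT53 and these 4, library 37 was the lowest of BY4742 and no library overlapped.

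Some transcripts were close to absent in 1 of the strains. The count was limited to the 3784 called transcripts, and among them to those with at least 10 CPM in a library of either strain. Of these, 33 had at most 3 counts in every Y55 library and more in BY4742, and 12 the reverse. Many on both sides had divided counts. ASP3-1 to ASP3-4 had identical values, as did YDR316W-A and YGR161C-C, so these counts are not numbers of distinct genes. ARR1, the activator of arsenic resistance, had no count in Y55 and 33.7, 32.9 and 34.3 CPM in BY4742, which is at least 116‐fold lower in Y55. Its neighbour ARR3, the arsenite exporter, was at least 33.3‐fold lower. REE1, of galactose metabolism, had at most 0.0627 CPM in Y55 and 135, 182 and 120 CPM in BY4742 (at least 504‐fold lower). BDS1, a sulfatase of bacterial origin, was at least 193‐fold lower, RDS1 at least 94.7‐fold, ADH7 at least 65.7‐fold and PGU1, a pectinase, at least 62.7‐fold. The reads of Y55 were counted against transcripts of the reference strain, so a gene that Y55 lacks, a gene too different in sequence to be counted and a gene that is not transcribed cannot be told apart. The same holds in part for any transcript that was lower in Y55. DID2 had 47.7, 76.7 and 36.9 CPM in Y55 and no count in BY4742, with divided counts where it overlaps YKR035C. How reads were shared between DID2 and YKR035C is uncertain, so the level of DID2 in BY4742 is uncertain too. Among transcripts with divided counts, the highest were MAL32, YAR068W and SNZ3 and the lowest YBR012W-B, YDR098C-B and YHR219W, all of them uncertain.

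The interactions furthest from 0 included reversals of the strain difference. TIP1, a cell wall mannoprotein, had 500, 270 and 421 CPM in Y55 and 294, 250 and 298 CPM in BY4742 in caffeine, where the libraries overlapped and the difference was not called (adjusted p = 0.0728, edgeR), but was without Y55 library 39 (log2 fold change 0.72). Without caffeine it had 156 ± 61.0 CPM in Y55 and 860 ± 110 CPM in BY4742 (SD, n = 3 each), and the interaction was 2.96 (SE 0.34, adjusted p = 8.36e-06, edgeR). MF(ALPHA)2, a gene of the alpha pheromone, had 181, 234 and 158 CPM in Y55 and 68.9, 154 and 60.4 CPM in BY4742 in caffeine (log2 fold change 1.02), against −1.28 without it. HO, the mating type switching endonuclease, had 13, 10 and 11 CPM in Y55 and 6.03, 9.21 and 6.94 CPM in BY4742 in caffeine (log2 fold change 0.63), and 13.9 ± 1.65 CPM in Y55 and 88.5 ± 4.20 CPM in BY4742 without it (SD, n = 3 each). The Y55 levels of HO were alike in both conditions and the BY4742 levels were not, with an interaction of 3.30 (SE 0.22, adjusted p = 1.36e-08, edgeR). DPI8 went the other way, with 107, 114 and 133 CPM in Y55 and 334, 411 and 256 CPM in BY4742 in caffeine (log2 fold change −1.50, not called without library 37, where it was −1.32) and a log2 fold change of 2.99 without it. HSP30, a plasma membrane heat shock protein, had 11.9, 13.2 and 17.6 CPM in Y55 and 161, 17.3 and 185 CPM in BY4742 in caffeine (log2 fold change −3.08), a call that was lost without any single library other than 37 (between −2.64 and −3.28). Library 37 fell within the Y55 range of HSP30. The interaction of HSP30 was −4.75 (SE 1.58), a call that was lost with a block of 4 library numbers (−4.36, adjusted p = 0.0795, edgeR). Without caffeine, HSP30 ran from 10.4 to 281 CPM in the Y55 libraries and from 28.6 to 41.8 CPM in BY4742.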

How the data were processed

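RNA was sequenced in 24 libraries of 4 strains, with 3 libraries per strain in caffeine and 3 without it. The authors trimmed the single‐end reads with Trimmomatic 0.36 and pseudo‐aligned them with kallisto 0.44.0 to transcripts of the reference strain (R64). They deposited the estimated count of each transcript, without normalization, with its effective length and TPM, and 6 tables of their DESeq2 comparisons that hold log2 fold changes, p-values and mean counts. Those tables and the TPM values were not used. kallisto divides reads between similar transcripts, and estimated counts were not whole (within 0.01) in at least 1 of the 6 libraries for 1316 of the 6400 tested transcripts. No strand option was stated for kallisto, so overlapping genes are uncertain. Reads of Y55 that differ from the reference can be lost.

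The estimated counts were rounded and tested with edgeR 4.0.16 (limma 3.58.1, R 4.3.3) by the quasi‐likelihood test, with the 24 libraries and their 8 groups in 1 model. The filter on low counts left 6400 transcripts with 99.998% of the counts. Libraries were scaled with TMM factors, CPM values use these scaled sizes, and the Benjamini-Hochberg adjustment ran over all tested transcripts. The SE is the size of the log2 fold change divided by the square root of F. The labels name no batch, but library numbers run in 3 sets of 8 with 1 library of each group. The deviations of Y55 and BY4742 libraries of the same set from their group means correlated at 0.15, 0.19 and 0.38 in caffeine and 0.18, 0.30 and 0.19 without it, and those of different sets in the same condition at 0.07 or less. The deviations of a group cancel over its 3 libraries, so values within sets and between sets are not independent of each other. Between the conditions, libraries of the same strain and set correlated at −0.10, −0.32 and 0.05 (Y55) and 0.06, −0.22 and −0.12 (BY4742). Those of the same strain and different sets correlated at between −0.37 and 0.37. Sets as a block, of 8 numbers or of the 4 within a condition, were added after seeing the data. The contrasts were Y55 over BY4742 in caffeine, the same without caffeine, their difference as the interaction, and Y55 over YPS606 and over UWOPS87-2421 in caffeine. An exact permutation test of 3 against 3 libraries cannot give a p below 0.1. A fold against a group with at most 3 counts in every library was computed against 3 counts per library. The procedure was tested on simulated data with 1 common spread for all transcripts, few changed transcripts and no outlying library. These data differ from that setting, so the test does not cover them fully.

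Named genes are the called transcripts with the 15 largest log2 fold changes in each direction, taken from a restricted set. That set had no overlap, whole counts, over 3 counts in every library and 10 CPM or more on average. The 5 furthest interactions in each direction were also named. From each gene group, genes were taken from among its 4 highest and 4 lowest members (any member where a group has at most 12). Genes that check the labels could be named too. Not all genes that these group and label rules allow are given. As uncertain, the 3 highest and 3 lowest transcripts with divided counts were named. PUF3, HSF1, GAP1 and SLT2 were named outside this rule after their values were seen, as were genes at the floor. The comparison, the gene groups and the sequence elements were chosen with earlier results of these data known. Windows of 250 bases after the stop codon and 500 bases before the start codon were read for 5853 genes from the R64 genome, whose gene table matched 6026 of the 6713 identifiers, 6021 with identical length. The alternatives were DESeq2 1.42.0, RLE size factors, no filter, offsets from effective lengths, a fit of the compared groups alone, whole counts only, an adjusted p under 0.01, a change of at least 1 log2 unit, and leaving out each library.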

Additional observations from a re-analysis of the deposited data

Results flagged for a closer look

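Each result here is an interaction that passed the edgeR threshold, so the difference between Y55 and BY4742 in caffeine was not the same as that without caffeine. All values are interactions on the log2 scale, with positive values shifted towards Y55.

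Among genes higher in Y55 in caffeine, the interaction was 2.27 for YHB1, 1.24 for RSM26, 1.20 for PET117, 1.06 for COX17, 0.97 for MRPL31, 0.96 for RSM25, 0.95 for CBP6, 0.92 for MRPL32, 0.78 for MAM33, 0.63 for MEF1 and 0.62 for COX23. It was 2.65 for URA1 and 2.29 for MF(ALPHA)2. ADE17 (3.0) and TIP1 (2.96) had an interaction while their strain difference in caffeine was not called.

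Among genes lower in Y55 in caffeine, the interaction was −4.42 for BTN2, −3.77 for SSA4, −3.16 for HSP42 and −4.75 for HSP30, which are heat shock or aggregate‐sorting proteins. With a block of 4 library numbers, HSP42 (−2.94, adjusted p = 0.0744, edgeR) and HSP30 (−4.36, adjusted p = 0.0795, edgeR) were not called. Without caffeine, the Y55 libraries ran from 20.0 to 368 CPM for HSP42 and from 10.4 to 281 CPM for HSP30. The interaction was −4.30 for ARO10, −4.84 for INO1, −4.38 for ROQ1, −3.88 for OSW2, −3.33 for YPT53, −1.09 for SRD1 and −4.49 for DPI8. It was −3.11 for YEL073C, −3.57 for YMR084W, −3.71 for YMR085W and −3.54 for YOR385W.

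BY4742 library 37 was the lowest of its group in caffeine for BTN2, SSA4, HSP42, HSP30, ARO10, INO1, ROQ1, OSW2, YPT53, YEL073C, YMR084W, YMR085W and YOR385W, and its part in these values was not tested beyond leaving it out.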

How the results depend on the processing

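With a replicate block of 8 consecutive library numbers, 3746 transcripts differed between Y55 and BY4742 in caffeine, 1834 had an interaction, 2124 differed without caffeine, 1768 against YPS606 and 4 against UWOPS87-2421. With a replicate block of 4 numbers, these counts were 3665, 1730, 2049, 1670 and 4. Of the strain differences in caffeine of the 148 named genes, none lost its call with either block and YKR035C was called (−1.29 and −1.42). The interactions of FLO11 and NRG2 lost their call with either block, and those of ATG41, HSP30, HSP42 and PRB1 with the block of 4. That of DBP2 was called with either block only. Without caffeine, the strain differences of OLE1 and SSA4 lost their call with either block. Against YPS606, those of COX5B and RPA190 lost it with the block of 4. The count of 3784 transcripts that differed between Y55 and BY4742 in caffeine was between 3305 and 3814 when each library was left out in turn, 3837 with DESeq2, 3767 with RLE size factors, 3797 with no filter, 3168 when only the 6 libraries were fitted and 2990 of 5084 with whole counts only. It was 1380 with a change of at least 1 log2 unit. In no alternative was a called transcript called in the opposite direction. With RLE size factors 1833 were higher and 1934 lower, against 1947 and 1837. The interaction count of 1860 was between 1434 and 2186 when each library was left out, 2034 with DESeq2, 1241 when only the 12 libraries were fitted, 989 at an adjusted p under 0.01 and 628 with a change of at least 1 log2 unit. Without caffeine, the count of 2172 was between 1737 and 2297 with each library left out and 801 with at least 1 log2 unit. Against YPS606, the count of 1800 was between 1329 and 1768 with each library left out and 540 with at least 1 log2 unit. Against UWOPS87-2421, it was 4 or 5 with each library left out.

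Of the genes named in the text, HO (log2 fold change 0.60) and KDX1 (0.84) were not called in the fit of the compared groups alone, where ADE17 was (1.49). At an adjusted p under 0.01, DPI8 and HSP30 were not called. Gene calls that turned on 1 library are given with the gene. The gene group counts without libraries 31, 37 and 39 and with RLE size factors were added after seeing the data. With 3 libraries per group, small differences can be missed, and for transcripts with divided counts the depth is not that of whole reads.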

Other observations

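Other gene groups had few calls or no single direction in caffeine. Flocculins and their regulators had 4 of 15 genes higher in Y55 and 3 lower (5 lower without Y55 library 39). FLO11, a cell surface flocculin, had 102, 94.0 and 69.9 CPM in Y55 and 61.2, 29.7 and 50.7 CPM in BY4742 (log2 fold change 0.90, SE 0.27, not called without Y55 library 31, where it was 0.72), and 1008 CPM on average in YPS606. NRG2, a repressor of such genes, had 11.3, 17.3 and 17.4 CPM in Y55 and 52.7, 63.6 and 64.6 CPM in BY4742 (log2 fold change −1.98). STE4, the beta subunit of the pheromone receptor's G protein, had 141, 161 and 135 CPM in Y55 and 59.5, 74.6 and 69 CPM in BY4742 (log2 fold change 1.10), and its strain difference without caffeine was not called (adjusted p = 0.342, edgeR). The purine gene IMD2, which shares reads with similar genes, had 55.9, 58.1 and 62.4 CPM in Y55 and 318, 157 and 314 CPM in BY4742 (log2 fold change −2.16). Without caffeine it had 47.1 ± 1.56 CPM in Y55 and 704 ± 19.9 CPM in BY4742 (SD, n = 3 each).

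ENA1, a sodium pump, had 12.4, 9.82 and 12.6 CPM in Y55 and 273, 172 and 255 CPM in BY4742 (log2 fold change −4.31), with divided counts in all 6 libraries. MAL31, a maltose permease, had 112, 99.2 and 154 CPM in Y55 and 21.0, 15.4 and 21.8 CPM in BY4742 (log2 fold change 2.64). Over chromosomes, the median log2 fold change in caffeine was between −0.16 on chromosome I and 0.07 on chromosome VII.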
